A study of Mus musculus with 18 samples.

Results

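Genes of the Notch pathway were followed across 4 groups of satellite cells, which are the resident stem cells of mouse muscle. The 9 genes are 3 receptors (Notch1, Notch2, Notch3), 2 ligands (Jag1, Dll1), the DNA-binding partner of the cleaved receptors (Rbpj) and 3 target genes (Hes1, Hey1, Heyl). Their rows were taken by symbol from the deposited expression table, where all 9 hold values among 10792 genes that do. The 9 genes were chosen with earlier results of these data known. All 9 passed the filter on low values in every comparison.

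In Notch signalling a ligand on one cell binds a receptor on its neighbour, the receptor is cut, and its intracellular part moves to the nucleus. There it joins Rbpj and switches on genes such as Hes1, Hey1 and Heyl, which encode repressors of the basic helix-loop-helix family. In adult muscle this pathway is known for keeping satellite cells quiescent and for holding back the myogenic factor MyoD.

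Every library came from cells of C57BL/6 mice, 8.5 to 9 months old, sorted from hind-limb muscle as VCAM1-positive and negative for CD31, CD45 and Sca1. The groups were non-activated cells of virgin mice (3 libraries), non-activated cells of pregnant mice (3), activated cells of virgin mice (6) and activated cells of pregnant mice (6). Activated cells were read as those of muscle injured with a 23-gauge needle. The protocols pair non-injured animals with a total RNA kit after removal of ribosomal RNA and injured animals with a poly-A kit, so activation and kit cannot be told apart in any library. The labels give neither the time after injury nor the stage of pregnancy, nor whether libraries came from separate animals, so that p-values measure the spread between these libraries, which may be technical. Total counts ran from 14043324 to 24336842 per library. Pax7, which defines satellite cells, was present in every library, at 4555 to 20831 normalized counts. In bulk RNA, fewer cells of a type and less RNA per cell cannot be told apart.

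Per the deposited table (build GRCm38), Notch1 lies on chromosome 2 at 26457903 to 26516663, Notch2 on chromosome 3 at 98013527 to 98150361, and Notch3 on chromosome 17 at 32120820 to 32166880. Jag1 lies on chromosome 2 at 137081456 to 137116644, Dll1 on chromosome 17 at 15367354 to 15376872, and Rbpj on chromosome 5 at 53466152 to 53657362. Hes1 lies on chromosome 16 at 30064384 to 30067796, Hey1 on chromosome 3 at 8663359 to 8667256, and Heyl on chromosome 4 at 123233556 to 123249875. The genes differ widely in genomic span, from 3.4 kb for Hes1 and 3.9 kb for Hey1 to 136.8 kb for Notch2 and 191.2 kb for Rbpj. Transcript lengths were not used, so levels are compared between groups for each gene and not between genes.

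Rbpj binds DNA at the letters GTGGGAA, which are TTCCCAC on the other strand. RefSeq promoter windows of 300 bases around the gene start (GRCm38.p6) were at hand for 6 of the 9 genes, namely Notch1, Notch2, Notch3, Jag1, Dll1 and Rbpj. None of these windows held the letters. Over all 32851 windows in the RefSeq table, 6.38% held them on either strand. Hey2, another repressor of the Hey family, held them at both ends of its upstream region, and its window is shown as an example of what Rbpj recognises. The stretch covers 260 bases on the minus strand, chr10:30842774-30843033, and ends 10 bases past the gene start. Capitals mark the letters, which begin 207 bases before the start (as TTCCCAC) and 4 bases before it (as GTGGGAA).
Hey2: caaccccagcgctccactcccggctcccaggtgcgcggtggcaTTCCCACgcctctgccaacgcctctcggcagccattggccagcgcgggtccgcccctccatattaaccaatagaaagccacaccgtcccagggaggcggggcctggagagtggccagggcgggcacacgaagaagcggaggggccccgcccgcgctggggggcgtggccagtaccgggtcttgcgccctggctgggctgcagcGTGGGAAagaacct
Hey2 itself was low, at 34.4 to 150.2 normalized counts over the 18 libraries. A match of letters is not evidence of binding.

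Pregnancy went with a different level of Heyl, Hes1 and Jag1. These comparisons lie within a library kit. In activated cells Hes1 was 1.83-fold and Heyl 1.52-fold lower in pregnant than in virgin mice, while the ligand Jag1 was 1.51-fold higher. In non-activated cells Heyl was 1.87-fold lower in pregnant mice, and Hes1 (1.67-fold lower) and Jag1 (1.48-fold higher) had the same signs without passing the test. Both passed in a fit of all 4 groups, which share 1 estimate of the spread (limma adjusted p = 0.0227 and 0.0064), as did Dll1 (0.0236), and Jag1 also passed with library weights (0.0461). In the fit of all 4 groups the SE of Hes1 was 0.22 against 0.38, at the same difference. The shared spread takes in the activated libraries. These were more alike within groups (Pearson r of 0.977 to 0.994) than the non-activated ones (0.872 to 0.95). Hey1 and the receptors passed the test in neither comparison, except that Notch3 passed in activated cells with the replicate number as a block (0.33, adjusted p = 0.04).

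**Figure D1:**
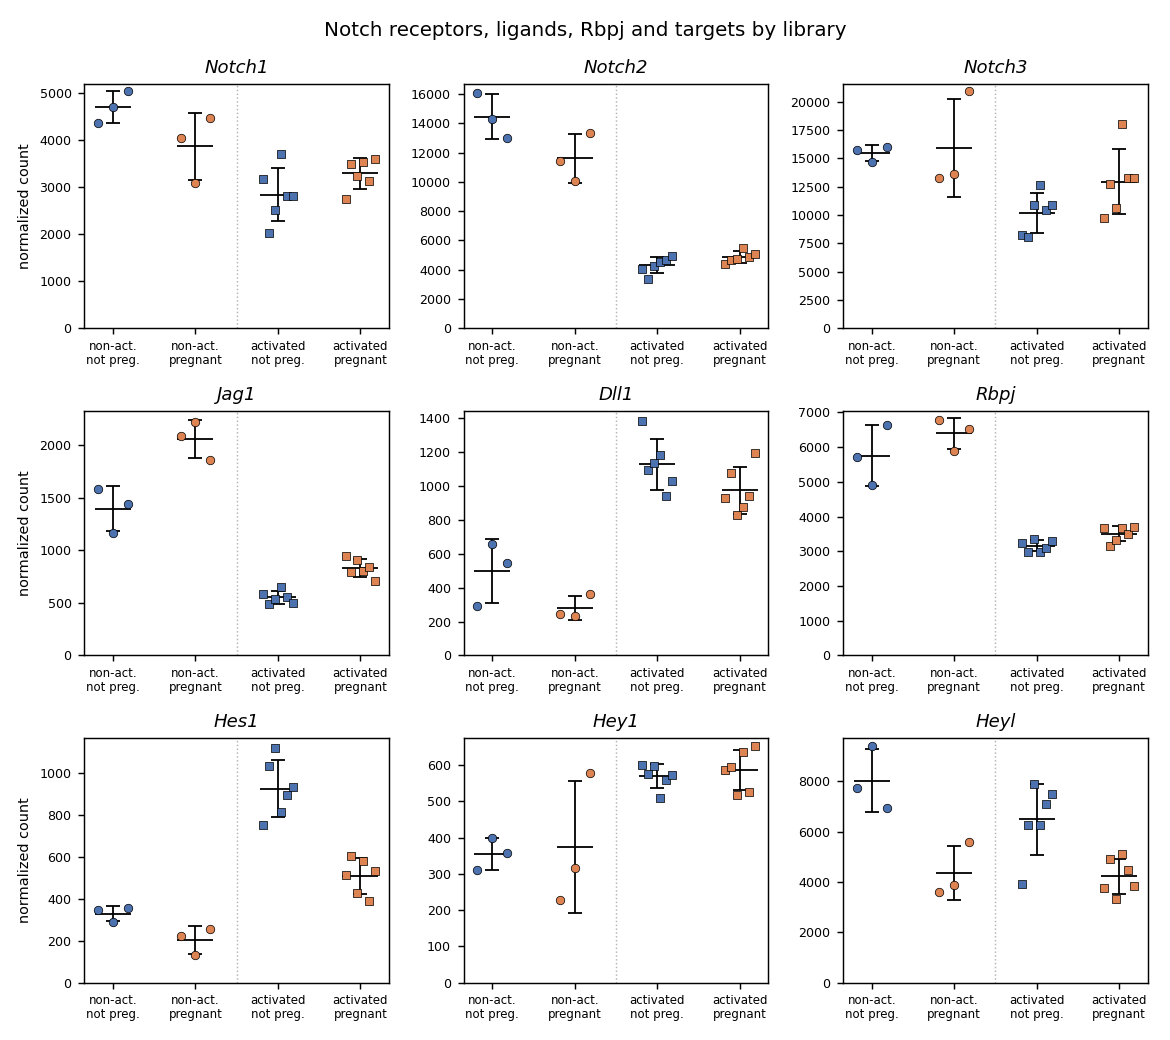
Normalized counts of the 9 genes in each library (points), with the mean and SD of each group (bars); circles are total RNA libraries of non-activated cells and squares poly-A libraries of activated cells, blue virgin and orange pregnant mice, with a dotted line between kits. All 6 Hes1 values of activated cells lie lower in pregnant mice (387.3 to 605.1) than in virgin mice (753.1 to 1118), and those of Jag1 lie higher (710.1 to 944.9 against 491.1 to 648.8).

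Hes1 encodes a repressor that Notch induces directly. Its lowest, median and highest normalized counts in activated cells were 753.1, 914.6 and 1118 in virgin mice and 387.3, 522.4 and 605.1 in pregnant mice. The 2 groups did not overlap, with every library of pregnant mice below every library of virgin mice. The log2 difference, on the scale of the normalized count plus 1, was -0.87 ± 0.12 (SE, limma adjusted p = 0.000521). Among non-activated cells Hes1 stood at 345.6, 288.5 and 354.2 in the libraries of virgin mice and at 224.0, 130.5 and 256.4 in those of pregnant mice. Here too the libraries did not overlap, but the difference of -0.74 ± 0.38 did not pass (limma adjusted p = 0.323). The authors' deposited table lists a log2 fold change of -0.69 with an adjusted p of 0.0141 for Hes1 in non-activated cells.

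Heyl, a Hey family repressor known as a Notch target in satellite cells, had 7732, 9422 and 6947 normalized counts in non-activated cells of virgin mice. In those of pregnant mice it had 3598, 3867 and 5594. All 3 values of pregnant mice were below all 3 of virgin mice, and the log2 difference was -0.90 ± 0.19 (SE, limma adjusted p = 0.0121). That call was lost without non-activated replicate 2 (limma adjusted p = 0.0655), without replicate 1 of the non-activated pregnant group (0.0611) or without its replicate 2 (0.0723). In activated cells the lowest, median and highest values were 3939, 6704 and 7883 in virgin mice and 3323, 4145 and 5112 in pregnant mice. These groups overlapped through replicate 1 of the activated virgin group, which at 3939 was the lowest of its group, while its other 5 libraries had 6265 or more. The log2 difference was -0.60 ± 0.16 (SE, limma adjusted p = 0.0143). Ordered by mean, Heyl ran from 8034 ± 1265 (SD, n = 3) in non-activated cells of virgin mice to 6502 ± 1414 (n = 6) in activated cells of virgin mice. It was 4353 ± 1083 (n = 3) in non-activated and 4231 ± 704.8 (n = 6) in activated cells of pregnant mice, means that differ by less than the spread of either group.

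Hey1, the third target, did not show these differences. Its range in activated cells was 510.3 to 600.9 in virgin mice and 518.8 to 651.8 in pregnant mice, a log2 difference of 0.04 ± 0.07 (SE, limma adjusted p = 0.716). Non-activated cells had 310.2, 397.8 and 356.3 in virgin mice. In pregnant mice Hey1 was at 227.4, 315.1 and 578.3, so that replicate 3 stood above every library of virgin mice and replicate 1 below. The log2 difference there was -0.03 ± 0.36 (adjusted p = 0.98). Hey1 was not tested against Heyl.

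Jag1, a ligand of the Serrate type, had 491.1, 548.0 and 648.8 (lowest, median, highest) in activated cells of virgin mice and 710.1, 821.2 and 944.9 in those of pregnant mice. Every library of pregnant mice was higher, with a log2 difference of 0.59 ± 0.09 (SE, limma adjusted p = 0.000641). The non-activated libraries had 1586, 1163 and 1445 in virgin mice and 2088, 2225 and 1864 in pregnant mice. They did not overlap either, at a log2 difference of 0.57 ± 0.19 that did not pass over all genes (limma adjusted p = 0.105). In the authors' deposited table this comparison has a log2 fold change of 0.56 and an adjusted p of 0.000958.

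Dll1, a ligand of the Delta type, had 294.5, 659.4 and 543.4 in non-activated cells of virgin mice and 244.6, 235.2 and 362.9 in pregnant mice. The groups overlapped through the lowest virgin library, replicate 1, and the log2 difference of -0.78 ± 0.36 did not pass (limma adjusted p = 0.267), while the authors' deposited table has -0.83 with an adjusted p of 0.00425. In activated cells Dll1 was at 940.8 to 1386 in virgin and 827.0 to 1198 in pregnant mice, overlapping, with a log2 difference of -0.21 ± 0.10 (adjusted p = 0.133).

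Receptors and Rbpj overlapped between pregnant and virgin mice in both kinds of cell. Notch1, which satellite cells are known to use in leaving quiescence and renewing, had means of 4692 ± 344.9 (SD, n = 3) and 3862 ± 708.3 (n = 3) in non-activated cells of virgin and pregnant mice. In activated cells they were 2834 ± 567.0 and 3284 ± 323.9 (n = 6 each). Notch2 had log2 differences of -0.32 ± 0.16 in non-activated and 0.18 ± 0.09 in activated cells (limma adjusted p = 0.317 and 0.133). For Notch3, linked in mice to quiescence and to limits on regeneration, they were 0.01 ± 0.18 and 0.33 ± 0.15 (0.981 and 0.0991). Rbpj differed by 0.16 ± 0.16 and 0.15 ± 0.06 (0.65 and 0.0674). For activated cells Rbpj passed with total count scaling (0.15, limma adjusted p = 0.0468) and without replicate 2 of the activated pregnant group (0.18, 0.0438). Over the alternatives that kept every library, that difference of Rbpj ran from -0.02 to 0.15. Replicate 3 of the non-activated pregnant group had the highest Notch3 of all libraries, 20931 against 13261 and 13602 in the same group, and was also the highest of its group for Hes1, Hey1, Heyl, Notch1, Notch2 and Dll1.

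In counts, 1 of the 9 genes passed the test for pregnancy in non-activated cells, lower in pregnant mice, where 4.62% of 10447 genes tested passed in either direction, 2.88% higher and 1.74% lower. In activated cells 3 of the 9 passed, 1 higher and 2 lower, beside 27.5% of 10499 genes in either direction, 14% higher and 13.4% lower. Groups without overlap were found for 3 of the 9 in non-activated cells (Heyl and Hes1 lower, Jag1 higher), where 23.7% of genes did not overlap (11.9% higher, 11.7% lower). In activated cells they were found for 2 of the 9 (Hes1 lower, Jag1 higher), beside 12% (6.01% higher, 5.96% lower). Read against these shares, the counts are no result about the 9 genes as a set. The median log2 difference of the 9 was -0.30 in non-activated and 0.15 in activated cells, against -0.02 and -0.01 over all genes tested. With total count scaling, the split of all calls in non-activated cells moved from 62.3% higher to 46.1% higher, with quantile normalization to 51.5% and with the trend with genomic span taken out to 77.9%.

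**Figure D2:**
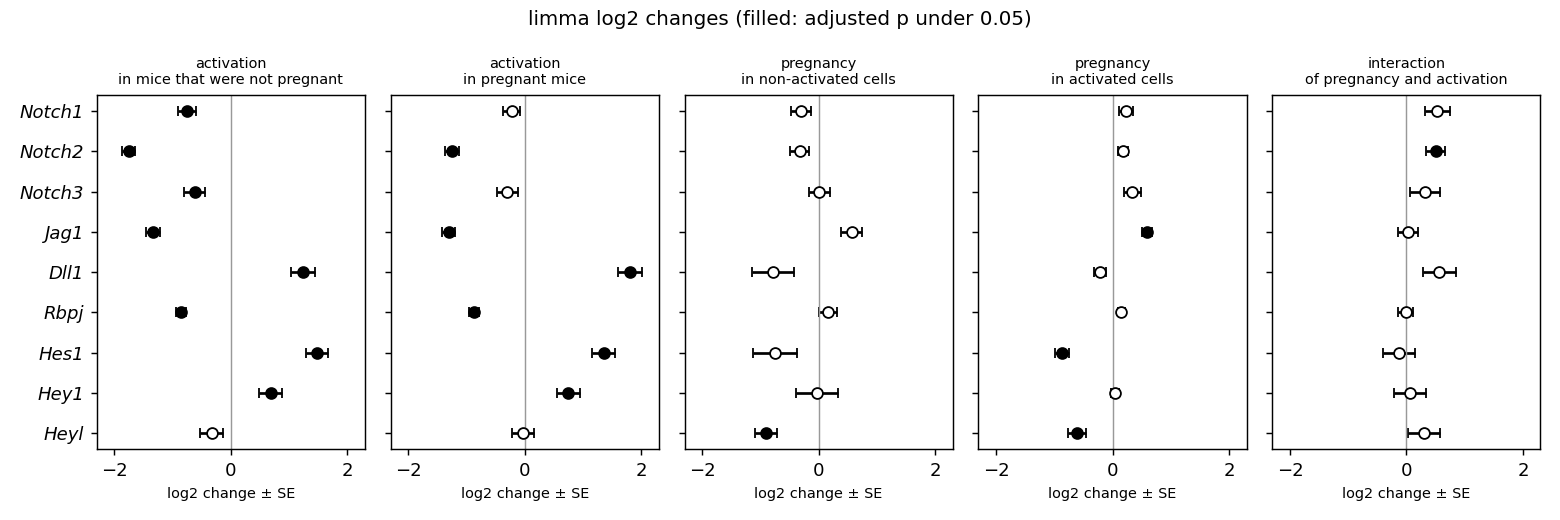
Log2 changes with SE from the limma fits for each gene in the 5 comparisons, on the log2 scale of the normalized count plus 1; filled points passed an adjusted p of 0.05 over all genes. Heyl is filled in both pregnancy panels, Hes1 and Jag1 in that of activated cells, and Notch2 alone in the interaction panel.

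Markers of other cells moved along with pregnancy in activated cells. Of 16 leukocyte symbols listed, 6 had values (Lyz2, Cd14, Cd68, Cd74, H2-Ab1 and Laptm5), and all 6 were higher in pregnant mice, where 14% of all genes were. Their summed normalized counts were 864.3 to 1318 in the 6 libraries of virgin mice and 1722 to 7739 in those of pregnant mice, with the highest in replicate 2. Defining genes such as Ptprc, Csf1r and Itgam had no value in the table. Of 8 fibro-adipogenic markers with values 7 were higher in pregnant mice, summing to 48712 to 82532 against 93171 to 140385. The groups did not overlap for either sum. Mural cells, which are known to use Notch3 and Heyl, had 2 of 9 markers higher, with sums of 14428 to 20069 against 16249 to 26868. Of 9 endothelial markers none passed (limma), and 2197 to 3224 stood against 1397 to 5601. No marker with a value was at 0 throughout a group. Without replicate 2 of the activated pregnant group, Hes1 had a log2 difference of -0.92 (adjusted p = 0.00056), Heyl of -0.65 (0.0169) and Jag1 of 0.60 (0.0013). The pregnant libraries left in that fit still had leukocyte sums of 1722 to 3799, above all those of virgin mice. That fit thus does not take these cells out of the comparison. The part of these cells in the differences of Hes1, Heyl and Jag1 was not tested.

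**Figure D3:**
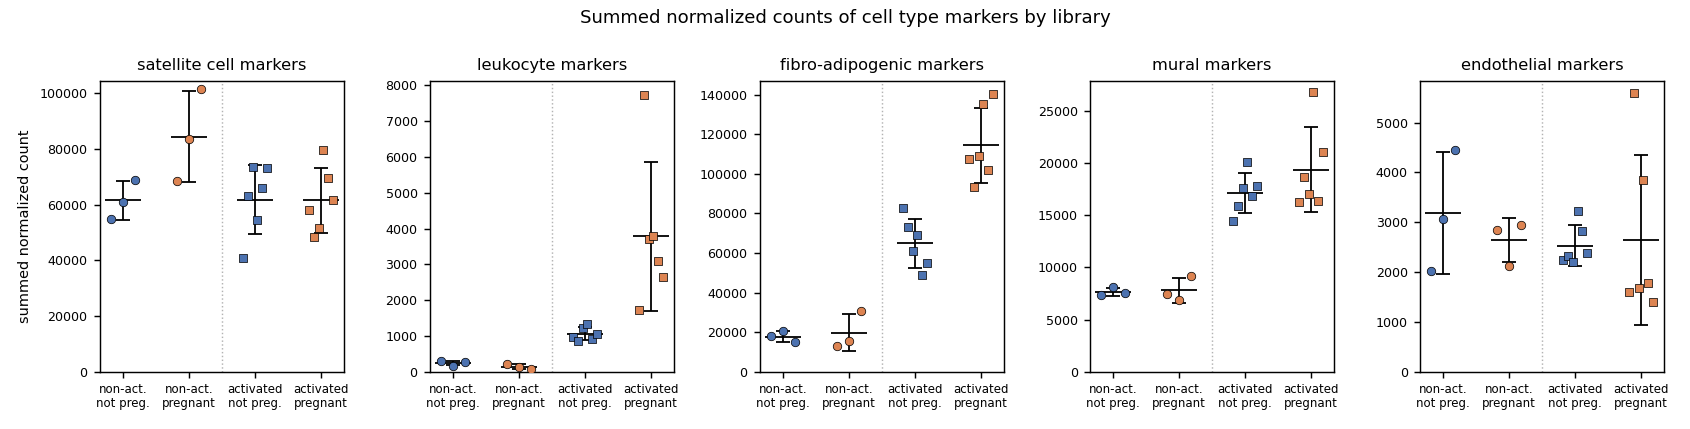
Summed normalized counts of markers of 5 cell types in each library (points), with group mean and SD (bars), in the symbols of the plot of the 9 genes. Leukocyte and fibro-adipogenic sums of activated cells are higher in pregnant than in virgin mice without overlap, while satellite cell, mural and endothelial sums overlap.

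In non-activated cells the leukocyte sums were 163.9 to 283.7 in virgin and 67.7 to 210.2 in pregnant mice, and no marker of leukocytes, fibro-adipogenic, mural or endothelial cells passed there. Of 6 satellite cell markers 3 passed, where 4.62% of all genes did. Pax7 was lower in pregnant mice (-0.64 ± 0.17, limma adjusted p = 0.041), while Vcam1, whose protein was used in the sort, and Sdc4 were higher (0.98 ± 0.22 and 0.77 ± 0.18, adjusted p = 0.0177 and 0.022). Pax7 had 14481, 18787 and 20831 in virgin mice and 11668, 11240.5 and 11519 in pregnant mice, with no overlap. The part of these differences in that of Heyl was not tested. The fibro-adipogenic sum of replicate 3 of the pregnant group was 30653, against 13005 and 15542 in its other 2 libraries and 14949 to 20360 in virgin mice. That is the replicate which was the highest of its group for 7 of the 9 Notch genes. Most of its fibro-adipogenic sum was Col3a1, which ran from 7195 to 24413 in the pregnant group, a highest value that only this replicate can hold. Dcn and Dpt, also in the sum, reached 1097.5 and 4476 in pregnant mice, against 1051 and 4541 in virgin mice. Myod1, which Notch targets are known to oppose, was at 1299, 1295 and 1403 in non-activated cells of virgin mice and at 4518, 5186 and 5413 in those of pregnant mice (log2 difference 1.92 ± 0.16, limma adjusted p = 2.06e-05). Myog, the other gene of myogenic commitment tested there, had 310.2, 889.5 and 106.0 in virgin mice and 46.3, 155.2 and 177.6 in pregnant mice, which overlapped, and its difference of -1.50 ± 0.69 did not pass (0.266). Activated cells, where Hes1 and Heyl passed as lower in pregnant mice, had overlapping Myod1 values, at 8680 to 10767 in virgin and 7661 to 13312 in pregnant mice. None of the 3 genes of myogenic commitment tested in activated cells passed for pregnancy (limma).

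Activation was compared next, with the kit differing in the same way in every library. Activated cells of virgin mice held less Notch2 (3.37-fold), Jag1 (2.51-fold), Rbpj (1.81-fold), Notch1 (1.68-fold) and Notch3 (1.53-fold). They held more Hes1 (2.79-fold), Dll1 (2.37-fold) and Hey1 (1.61-fold). With the trend of every library along genomic span removed, Rbpj turned to higher and Hey1 to lower, and Hes1 lost its call at a value of the other sign. Heyl did not pass until the span trend was taken out. Markers of other cells were higher in the same libraries of virgin mice, with 7 of 9 mural (sums of 7323 to 8077 in non-activated and 14428 to 20069 in activated cells), 6 of 8 fibro-adipogenic (14949 to 20360 and 48712 to 82532) and 4 of 6 leukocyte markers passing, where 39.0% of all genes were higher. In pregnant mice 7 of 9 mural, 7 of 8 fibro-adipogenic and 6 of 6 leukocyte markers were higher, where 40.3% of all genes were. Endothelial markers were near the shares of all genes higher, with 4 of 9 higher and 1 lower in pregnant mice, and 3 and 1 in virgin mice. The part of all these other cells in the activation values was not tested.

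Notch2 had 16066, 14270.5 and 13008 normalized counts in non-activated and 3359 to 4963 in activated cells of virgin mice, with no overlap. Pregnant mice had 11425, 10051 and 13344 against 4406 to 5500.5, again without overlap. The log2 changes were -1.75 ± 0.12 and -1.25 ± 0.12 (SE, limma adjusted p = 1.26e-10 and 1.84e-08). With the span trend taken out they were -0.60 and -0.34, lower and past the test in both (0.000284 and 0.0181), a shift by over 1.5 times.

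Notch1 and Notch3 were lower in activated cells of virgin mice, with log2 changes of -0.75 ± 0.15 and -0.62 ± 0.18 (limma adjusted p = 0.000192 and 0.00577). Notch1 ran from 4349 to 5039 in non-activated and from 2016 to 3689 in activated cells, and Notch3 from 14628 to 15976 and from 8034 to 12612. Neither gene overlapped. In pregnant mice both overlapped and neither passed, at -0.22 ± 0.15 and -0.30 ± 0.18 (0.19 and 0.156), with Notch3 at 9722 to 18013 in activated cells. The call of Notch1 in virgin mice was lost with quantile normalization (adjusted p = 0.0543) and that of Notch3 with library weights (0.0533). Notch3 passed in pregnant mice with the replicate number as a block (-0.49, adjusted p = 0.00752) and without replicate 4 of the activated pregnant group (-0.40, 0.0441), and Notch1 without replicate 2 of the non-activated pregnant group (-0.38, 0.0464).

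The 2 ligands went opposite ways. Jag1 fell by 1.33 ± 0.12 on the log2 scale in virgin and by 1.31 ± 0.12 in pregnant mice (limma adjusted p = 6.8e-09 and 1.06e-08), with no overlap in either. Span made little difference to it, with values of -1.40 and -1.51 once its trend was taken out. Dll1 rose by 1.24 ± 0.20 and 1.81 ± 0.20 (2.14e-05 and 2.13e-07), also with no overlap, from 235.2 to 362.9 in non-activated to 827.0 to 1198 in activated cells of pregnant mice. With the span trend taken out Dll1 had 0.08 in virgin mice, which did not pass (0.721), and 0.60 in pregnant mice (0.00496).

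Rbpj was lower in activated cells by a log2 change of -0.86 ± 0.09 in virgin and -0.87 ± 0.09 in pregnant mice (limma adjusted p = 6.45e-08 and 6.18e-08), but higher, at 0.67 and 0.36, with the span trend taken out. Its levels were 4908 to 6642 and 5886 to 6767 in non-activated cells, and 2974 to 3341 and 3164 to 3687 in activated cells, of virgin and pregnant mice respectively. No activated library reached any non-activated library.

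Among the targets, Hes1 had log2 changes of 1.48 ± 0.19 in virgin and 1.35 ± 0.19 in pregnant mice (limma adjusted p = 1.3e-06 and 4.31e-06), with no overlap, but -0.27 and -0.32, neither of which passed (0.209 and 0.132), with the span trend taken out. Hey1 had 0.69 ± 0.19 and 0.75 ± 0.19 (0.00378 and 0.00189), but -1.01 and -0.88 with that trend taken out. Its groups overlapped in pregnant mice, where replicate 3 of the non-activated cells lay within the activated range of 518.8 to 651.8. Heyl had -0.33 ± 0.20 and -0.03 ± 0.20, overlapped in both and did not pass (0.139 and 0.896), but with the span trend taken out it was lower, at -1.06 and -0.85 (0.000153 and 0.00112).

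**Figure D4:**
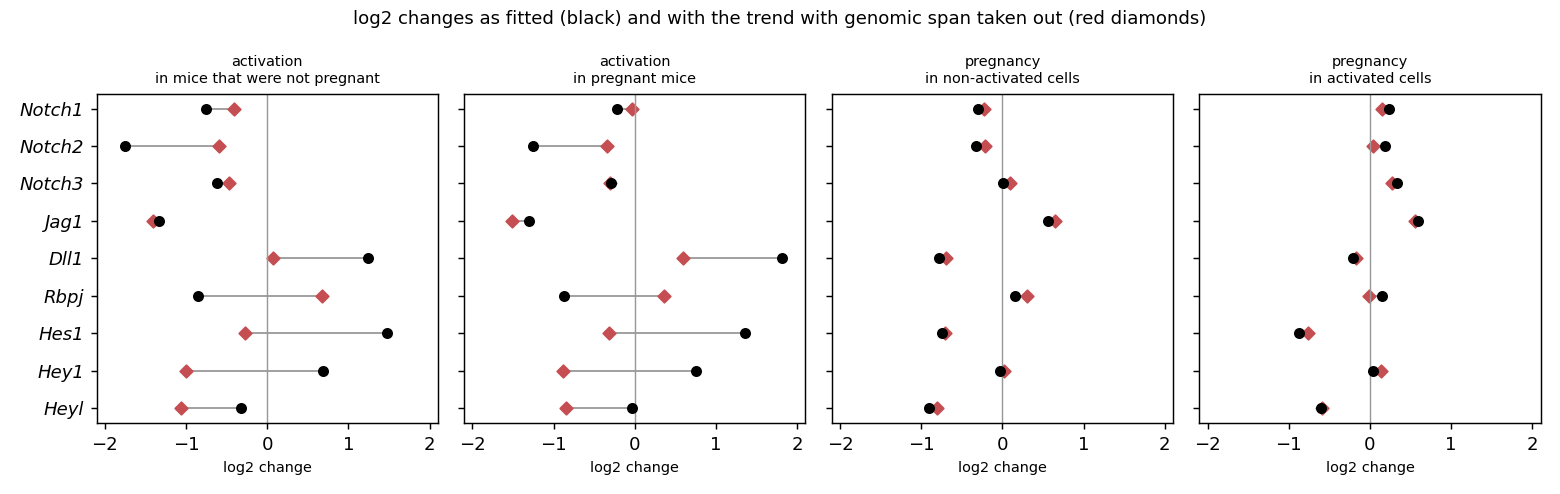
Log2 changes of the 9 genes as fitted (black circles) and with each library's trend with genomic span taken out (red diamonds), for activation and for pregnancy. Rbpj, Hes1 and Hey1 cross 0 in both activation panels, while Hes1, Heyl and Jag1 stay on the same side in both pregnancy panels.

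Of the 9 genes, 8 passed the test for activation in virgin mice (3 higher, 5 lower), where 72.6% of 10751 genes passed (39.0% higher, 33.6% lower). In pregnant mice 6 passed (3 higher, 3 lower), where 72.8% passed (40.3% higher, 32.6% lower). Groups did not overlap for 8 of the 9 in virgin mice (all genes 68.4%, with 36.3% higher and 32.2% lower) and for 5 in pregnant mice (63.0%, with 33.6% higher and 29.4% lower). The median log2 change of the 9 was -0.62 in virgin and -0.22 in pregnant mice, and that of all genes 0.17 and 0.21. Other scalings moved the all-gene median, to 0.36 and 0.50 with total count scaling, 0.01 for both with quantile normalization, and -0.10 and -0.18 with the span trend taken out. The median of the 9 in pregnant mice had the other sign with total count scaling (0.07) and with quantile normalization (0.27). The split of all calls in virgin mice moved from 53.7% higher to 43.1% with the span trend taken out, and in pregnant mice from 55.3% to 39.7%.

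Whether pregnancy changed the difference between activated and non-activated cells was tested as an interaction. Of the 9 genes only Notch2 passed, with a difference between the pregnancy differences of 0.50 ± 0.17 on the log2 scale (SE, limma adjusted p = 0.0482), where 15.1% of 10751 genes passed (7.83% positive, 7.24% negative). Over all genes 52% of these calls were positive, 67.1% with total count scaling and 29.9% with the span trend taken out. Its level was 1.25-fold lower in pregnant mice among non-activated cells and 1.14-fold higher among activated cells, neither of which passed on its own. The call was lost in 13 of 18 fits that left out a library, at adjusted p values of up to 0.12, with library weights (0.34, adjusted p = 0.575) and with the span trend taken out (0.25, 0.341). Which gene passed also depended on the library left out. Without replicate 1 of the non-activated virgin group Dll1 passed (0.90, limma adjusted p = 0.0148) and Notch2 did not (0.104). Without replicate 4 of the activated virgin group Notch1 passed (0.61, 0.048) and Notch2 did not (0.0577). No difference between activated and non-activated cells was detected in how pregnancy went with Jag1 (0.03 ± 0.17, adjusted p = 0.934), Hes1 (-0.13 ± 0.27, 0.79) or Heyl (0.30 ± 0.28, 0.488).

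The wider pathway was read from 9 lists with 70 genes, of which 58 had values. For pregnancy in non-activated cells, 55 were tested and 2 passed, both lower in pregnant mice, with a median log2 difference of -0.07, where 4.62% of all genes passed. They were Dtx4, a ubiquitin ligase of the Deltex family that regulates Notch (-0.93 ± 0.21, limma adjusted p = 0.0179), and Kat2a, an acetyltransferase that works with Notch complexes (-1.20 ± 0.28, 0.024). Dtx4 had 11024, 11599.9 and 10747 normalized counts in virgin mice and 4968, 4579.7 and 8679.7 in pregnant mice, which did not overlap. For pregnancy in activated cells, 12 of 58 were higher and 6 lower, with a median of 0.10, where 14% of all genes were higher and 13.4% lower, or 8 and 7 of the 58 with the span trend taken out. In the interaction 9 were positive and 1 negative, or 3 and 1 with the span trend taken out, where 7.83% and 7.24% of all genes were. Kat2a (0.90 ± 0.19, limma adjusted p = 0.00483) and Dtx4 (0.85 ± 0.23, 0.0185) were among the positive ones, as were Neurl3 (2.87 ± 0.74, 0.0151), Aph1b (2.03 ± 0.43, 0.00503), Aph1c (2.20 ± 0.71, 0.0443), Notch4 (3.70 ± 1.19, 0.0431) and Col6a2 (0.75 ± 0.23, 0.0358). Hdac2, a histone deacetylase, was the negative one (-0.72 ± 0.14, 0.00341). Several of the positive genes were low in non-activated cells. In those of pregnant mice Neurl3 had 3.4 to 25.9, Notch4 0 to 32.9 and Aph1b 26.6 to 115.2 normalized counts. In those of virgin mice Aph1c had a median of 57.6 and a highest value of 259.2. Read against these shares, the counts of pathway genes are no result about the pathway as a set.

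Collagens that Notch is known to induce in satellite cells were among those higher in activated cells of pregnant mice. Of the 5 genes listed, which include the calcitonin receptor, 3 passed, all higher, where 14% of all genes were. They were Col6a2 (0.94 ± 0.11, limma adjusted p = 0.000213), Col6a1 (0.75 ± 0.09, 0.000173) and Col5a1 (0.52 ± 0.10, 0.00431). Col5a3 did not pass, at 4600 to 5506 normalized counts in virgin and 4079 to 7133 in pregnant mice. Col6a1 had 5338 to 6516 normalized counts in virgin and 8715 to 11881 in pregnant mice, and Col5a1 4081 to 5138 against 5185 to 7677, with no overlap. Fibro-adipogenic cells are also known to make these collagens, and the sum of the markers of those cells, given above, was higher in the same libraries. That sum is itself largely collagen, with Col1a1, Col1a2 and Col3a1 at means of 29432, 32063 and 33222 in activated cells of pregnant mice. Of its 8 markers 7 were higher, and Dpt was not, with means of 3188.5 in virgin and 3103.3 in pregnant mice. Calcr, the calcitonin receptor, had 509.6 to 1454.5 in virgin and 1163 to 2988 in pregnant mice and did not pass (0.60 ± 0.25, adjusted p = 0.0867).

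Other receptors, ligands and Hes and Hey genes with values were few and mostly low. Hes6, a Hes family member known to promote differentiation, was lower in activated cells of pregnant mice, at 526.5 to 875.1 against 838.7 to 1244 (-0.65 ± 0.13, limma adjusted p = 0.00388). The groups overlapped through replicate 6 of the pregnant group. Dlk1, a non-canonical ligand-like protein, was higher at 205.8 to 476.2 against 122.1 to 208.6 (0.80 ± 0.19, 0.00924). Jag2 had 208.9 to 387.4 against 232.1 to 506.7, and Notch4 and Dll4, both known from endothelium, had 35.5 to 179.9 and 17.4 to 131.6 in pregnant mice, against 51.4 to 114.6 and 32.4 to 82.8 in virgin mice. These 3 did not pass. Hey2 had 43.4 to 70.5 against 34.4 to 77.0 and did not pass.

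Coactivators had 2 higher and 1 lower of 7 in activated cells of pregnant mice, Crebbp (0.38 ± 0.07, limma adjusted p = 0.00334) and Maml1, the Mastermind-like partner of Rbpj complexes (0.24 ± 0.07, 0.0263), against Kat2a (-0.30 ± 0.09, 0.0308). Corepressors had 3 higher, led by Tle2 (0.56 ± 0.17), and 2 lower, L3mbtl3 (-0.29 ± 0.07) and Tle3 (-0.17 ± 0.06), of 11, but 1 higher and 3 lower with the span trend taken out and 3 and 3 with quantile normalization. None of 8 genes of receptor cleavage passed (limma, 2 with an unadjusted p under 0.05). Sugar-modifying genes had Eogt higher (0.32 ± 0.10) and Poglut1 lower (-0.21 ± 0.05) of 5, and genes of ligand endocytosis Epn2 higher (0.20 ± 0.06) and Neurl1a lower (-0.60 ± 0.17) of 7. Of 9 genes of receptor trafficking and turnover, Dtx3 was higher (0.51 ± 0.09). Over all genes 14% were higher and 13.4% lower in this comparison. Counts in lists this small are no result about any list as a set.

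**Figure D5:**
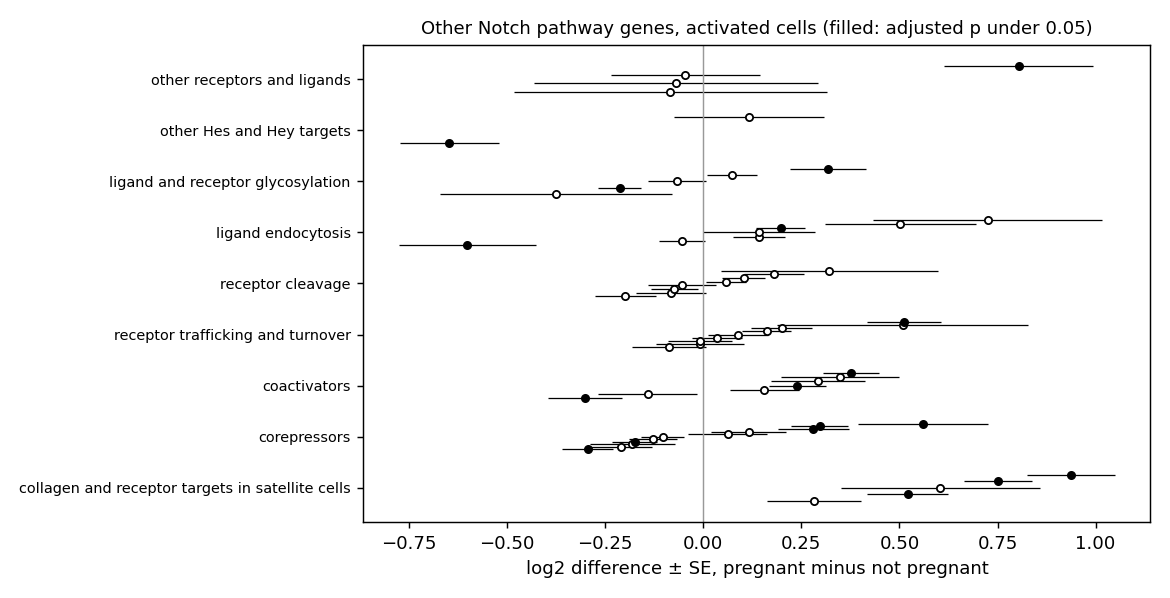
Log2 differences with SE between activated cells of pregnant and virgin mice for 58 other Notch pathway genes, in rows by list; filled points passed an adjusted p of 0.05 over all genes. The 3 collagen genes that passed lie between 0.52 and 0.94, and Hes6 lies at -0.65.

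For activation, 21 of the 58 were higher and 25 lower in virgin mice, and 26 and 23 in pregnant mice, or 16 and 22, and 15 and 21, with the span trend taken out. Over all genes 39.0% were higher and 33.6% lower in virgin mice, and 40.3% and 32.6% in pregnant mice. The median was -0.03 in virgin and 0.23 in pregnant mice, and in each it had the other sign under another scaling, at 0.17 with total counts and -0.02 with the span trend taken out. Coactivators were lower in 6 of 7 in both (5 of 7 in both with the span trend taken out), with Maml2 at -3.06 ± 0.21, Maml3 at -2.87 ± 0.17 and Crebbp at -2.67 ± 0.09 in virgin mice (limma adjusted p = 1.85e-10, 2.8e-11 and 1e-14). Psenen and Aph1a, both subunits of the gamma-secretase that cuts the receptor, were higher, by 3.00 ± 0.35 and 2.41 ± 0.25 in virgin mice. Fbxw7, a ubiquitin ligase for the intracellular part of Notch, and Numb, a Notch inhibitor, were lower, with log2 changes of -2.26 ± 0.13 and -2.05 ± 0.17. In virgin mice Hes6 rose from 49.1 to 67.7 in non-activated to 838.7 to 1244 in activated cells (limma adjusted p = 7.71e-05). These single genes are given as fitted, with the kit difference in them and the span trend left in. With that trend taken out, list medians in virgin mice moved from 0.47 to 0.03 for receptor cleavage and from 1.60 to 0.12 for other Hes and Hey genes. They moved from -1.04 to -0.58 for coactivators and from -0.83 to -0.91 for receptor trafficking and turnover.

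Genes with the pattern most like that of a member were sought by Pearson r of log2 values over the 12 activated libraries, all of the poly-A kit, among 10499 genes. For Hes1 they were Cxxc5 (r = 0.95, Spearman rho = 0.944), Fam220a (0.949, 0.923) and Dctn5 (0.946, 0.972), and for Heyl Mat2a (0.967, 0.909), Fam46b (0.964, 0.867) and Espn (0.948, 0.958). Notch3 was closest to Inpp4a (0.971, 0.979), Dopey2 (0.965, 0.916) and Arhgap39 (0.964, 0.937). Hey1 had lower values, with P2rx5 (0.867, 0.881), Cnksr3 (0.811, 0.783) and Atg13 (0.804, 0.888). The libraries form 2 groups, virgin and pregnant, and a difference between these groups enters each r, so that the values are a description.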

How the data were processed

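RNA sequencing of 18 libraries was deposited as 1 table, in which 10792 of 47729 genes held values. Per the file headers, the table gives raw counts and normalized counts per library, and log2 fold changes with adjusted p-values from the authors' own comparisons. The deposited normalized count equals the raw count divided by 1 factor per library. The submitters' processing notes name DESeq2 1.22.1, HTSeq 0.6.0, TopHat2 2.0.14 and cutadapt 1.12, with no order of steps. A further 6 columns of samples that are not part of these groups were not used. Genes without a value carry a mark in place of a number and were left out. The main tests were run on the normalized counts and not with a count model, although the raw counts were whole numbers.

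Log2 values of the normalized count plus 1 were fitted with limma 3.58.1 (trend) in R 4.3.3. Genes with at least 10 normalized counts in at least 3 libraries (6 for pregnancy in activated cells) were kept, and p-values were adjusted by Benjamini-Hochberg over all genes tested, with a threshold of 0.05. Activation and the interaction used all 4 groups, and each pregnancy comparison its 2 groups. Tests of activation and the interaction thus rest on 1 spread shared by all groups, which may understate that between non-activated libraries. Alternatives were total count scaling, quantile normalization, pseudocounts of 0.5 and 5, no filter, limma-voom on raw counts, library weights, other libraries in the fit, a replicate block, each library's trend with genomic span taken out (natural spline with 4 degrees of freedom), and each library left out. The fits were also run on simulated counts, with the same dispersion for all genes and groups and no difference between kits. That run cannot show how the fits behave with the unequal spread and the kits of these data. The 9 genes and all lists were chosen with earlier results of these data known. The rule for naming list genes was up to 3 called genes per direction and comparison with the largest change, and every member of the lists of other receptors, ligands, Hes and Hey genes. Not every gene the rule takes is printed, the choice among them was made after their values were seen, and 1 result is not reported here. Calcr, Myod1, Myog and the satellite cell markers were also named after their values were seen. No pair of libraries was found to be a duplicate.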

Additional observations from a re-analysis of the deposited data

Results flagged for a closer look

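The difference between activated and non-activated cells in how pregnancy went with Notch2, the interaction of 0.5031 on the log2 scale (SE 0.17, limma adjusted p = 0.0482), was singled out because it passed the test of the difference itself. No library stood far from its group in the 18 groups of 6 values examined.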

How the results depend on the processing

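Of 927 alternative values of the 9 genes, 886 stayed on the same side of the threshold without a reversal, 21 lost and 14 gained a call, and 6 reversed. A change of sign was counted as a reversal only where the gene passed in the main fit or in the alternative. Values that passed in neither were counted as unchanged whatever their sign. Notch1 is a case, for activation in pregnant mice, at -0.32 to 0.27 over the other settings. All 6 reversals came with the trend with genomic span taken out: in virgin mice activation gave -0.27 for Hes1, -1.01 for Hey1 and 0.67 for Rbpj, and in pregnant mice -0.32, -0.88 and 0.36. The values of Hey1 and Rbpj passed the test in their new direction, and those of Hes1 did not (limma adjusted p = 0.209 and 0.132). The cause was not tested. For pregnancy in non-activated cells, 2 members (762 genes in all) passed with library weights and 4 members (2485 genes) in a fit of all 4 groups (Heyl, Hes1, Jag1 and Dll1), against 1 member and 483 genes as reported. Leaving out each library gave 0 to 1 members and 237 to 441 genes. For pregnancy in activated cells, 578 genes passed in the fit of all 4 groups, against 2883. There, leaving out each library gave 3 to 4 members and 1959 to 2836 genes, and Hes1, Heyl and Jag1 kept their calls in all 12 such fits and under all 10 other alternatives. The interaction had 0 members with library weights (81 genes, against 1620) and with the span trend taken out, and 0 to 1 members (1297 to 2301 genes) when libraries were left out. For activation these fits gave 8 members and 7523 to 7675 genes in virgin mice, and 6 to 7 members and 7604 to 7822 genes in pregnant mice. With the replicate block, 8, 7, 1, 4 and 1 members passed for activation in virgin mice, in pregnant mice, pregnancy in non-activated cells, in activated cells and the interaction (7411, 7403, 568, 2177 and 1204 genes). Libraries that share a number did not deviate together (correlations of -0.175 to 0.151), so the numbers were not read as pairs.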
